A study of Sus scrofa with 12 samples.

Results

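Transcriptomes of AOC, an endothelial line of pig origin, were compared with those of porcine induced pluripotent stem (iPS) cells collected on day 4 of endothelial induction, called IEC4. Each group had 3 libraries, lettered A, B and C, so 6 of the 12 libraries of the series were used, and all 3 of a group are described by the submitters as biological replicates. Of the 19681 genes in the files, 10207 had an expression value in FPKM (sequenced fragments relative to transcript length and to the mapped fragments of the library) that reached 1 in 3 or more of the 6 libraries, and these were tested. The question asked of the comparison is what still separates cells on day 4 from the endothelial line labelled as final, and which of the line's abundant transcripts day 4 cells already held at a high level.

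AOC carries the time label "final" and the cell type label of porcine endothelial cells. The labels and methods do not give its tissue of origin, its medium or its passage, and they do not say whether the 3 libraries came from separate thaws of the line, so cell type and culture conditions cannot be told apart. IEC4 cells were iPS cells plated on Matrigel, exposed to the GSK3 inhibitor CHIR99021 and then to BMP4, FGF2 and VEGF, and were collected whole, with no sorting on an endothelial surface protein. Because each library was made from bulk RNA, fewer cells of a type and less RNA per cell cannot be told apart. The labels name no transgene or deletion in either group.

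Endothelial cells line blood vessels. They are held together by the vascular cadherin CDH5 and by PECAM1, sense VEGF through the receptors KDR and FLT1, make nitric oxide with NOS3, and are kept in their state by transcription factors of the ETS family such as ERG and FLI1. During induction from pluripotent cells, activation of WNT signalling drives cells through a primitive streak-like state to mesoderm, and BMP4 and VEGF then promote vascular progenitors. The same BMP4 and WNT stimuli can also give extraembryonic epithelium such as amnion, whose cells keep keratins and epithelial cadherin.

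The libraries resembled each other within groups, with a median Pearson r of 0.9865 on the log2(FPKM + 1) scale, against 0.8439 between groups. These correlations took in the 17608 genes above 0 FPKM in any of the 6 libraries. IEC4 C was the least like its group. The number of reads is unknown. From the size of the steps between low FPKM values, the depth relative to IEC4 C was 0.882 to 0.909 in AOC and 1 to 1.211 in IEC4, so the AOC libraries were a little shallower. Between 8357 and 8638 genes reached 1 FPKM in AOC, and between 9909 and 10467 did in IEC4, and the summed FPKM was 426839 to 441757 in AOC and 348674 to 379368 in IEC4.

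What separated the groups was first the endothelial programme itself. Most tested markers of endothelial identity were higher in AOC, and several of them were at or near 0 in IEC4, whereas the largest differences toward IEC4 were those of the keratin KRT8, the membrane glycoprotein GPM6A and the oxygen-sensing enzyme EGLN3. With the limits of the study (raw and Benjamini-Hochberg adjusted p both under 0.001, with a log2 fold change beyond 3 either way), limma on log2(FPKM + 1) called 565 genes, 5.54% of those tested. Of these, 232 (2.27%) were higher in AOC and 333 (3.26%) were lower, and the 3 AOC values did not overlap the 3 IEC4 values in any of the 565. Non-overlap alone was common, at 7942 genes or 77.8%. Throughout, fold changes are AOC minus IEC4 on the log2(FPKM + 1) scale, which understates the change of genes at a low level, and no fold is given for a gene listed at 0 in all 3 libraries of a group.

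A wider call, with adjusted p under 0.05 and a log2 fold change beyond 1 either way (the 2-fold rule), took in 4531 genes, 44.4% of those tested. It placed 1435 genes (14.1%) higher and 3096 (30.3%) lower in AOC. This split depends on the scaling, because the median log2 fold change over all tested genes was -0.43 with the values as deposited. After scaling by the median of ratios the median was -0.03 and the split became 2116 higher and 2088 lower. At equal FPKM totals the median was -0.67 and the split 1183 higher and 3840 lower. Lists of genes are therefore read below against the shares of all genes and against that median of -0.43. The count of a list is given under another scaling where it changes its direction. A gene under 1 FPKM in every library of a group was tested only if every library of the other group reached that level. List counts and medians therefore follow in part from the filter.

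**Figure D1:**
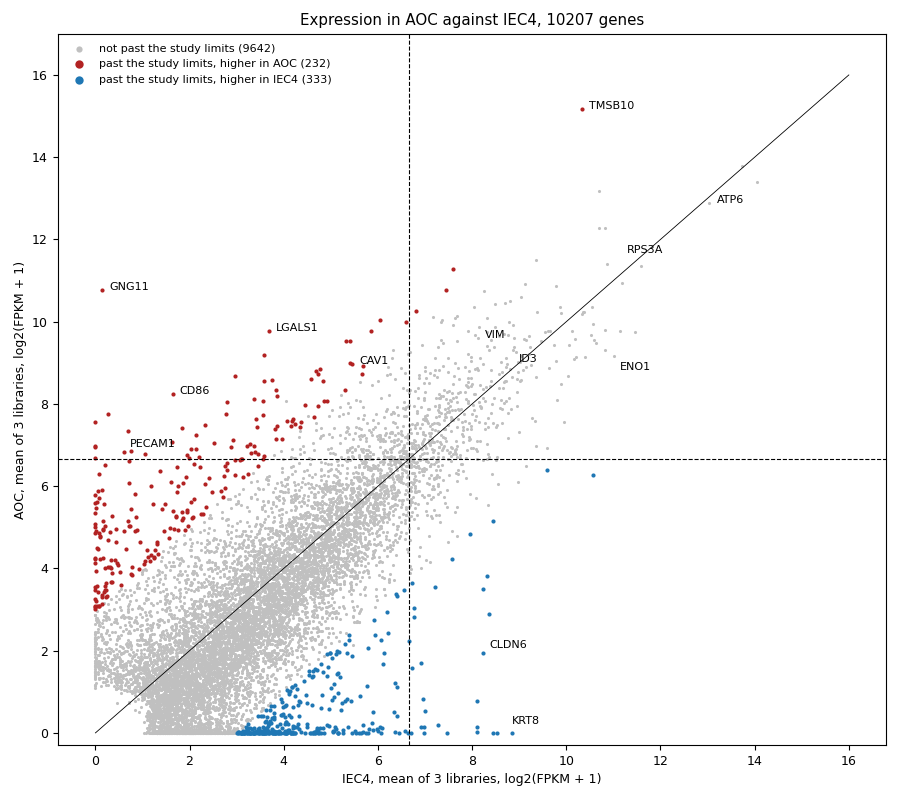
Mean log2(FPKM + 1) of the 3 AOC libraries (vertical axis) against that of the 3 IEC4 libraries (horizontal axis) for the 10207 genes tested, with equal values on the diagonal and an FPKM of 100 at the dashed lines. The 232 red points and 333 blue points passed the study's limits; GNG11 stands at the upper left and KRT8 at the lower right, and TMSB10 is the gene highest in AOC.

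Among the 12 named genes with the largest differences toward AOC, 5 are genes known for endothelial cells. CDH5 (ENSSSCG00000035772, chromosome 6, 27108560 to 27142145 in susScr11), the vascular cadherin of endothelial junctions, had 137, 134 and 103 FPKM in AOC and was listed at 0 in all 3 IEC4 libraries (limma adjusted p = 6.86e-08). PECAM1 (ENSSSCG00000017277, chromosome 12, 14667643 to 14723296), the surface protein CD31, had 119, 131 and 91.7 FPKM in AOC and 0.554, 0.519 and 0.489 FPKM in IEC4 (log2 fold change 6.22 ± 0.16 SE, limma adjusted p = 1.17e-07). ECSCR, an endothelial surface protein that modulates migration, had 192, 173 and 198 FPKM in AOC and was listed at 0 throughout IEC4 (limma adjusted p = 1.89e-08). CLEC14A, an endothelial lectin, followed the same pattern with 137, 146 and 97 FPKM against 0 in every IEC4 library (limma adjusted p = 1.14e-07), and MYCT1, a MYC target of endothelial cells, had 112, 122 and 109.7 FPKM in AOC and 0.464, 0.542 and 1.09 FPKM in IEC4 (log2 fold change 6.10 ± 0.17 SE, limma adjusted p = 1.34e-07). The groups did not overlap in any of the 5, but the rule that chose them required this.

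The gene with the largest fold change of all was GNG11 (ENSSSCG00000015324, chromosome 9, 73721327 to 73726229), a gamma subunit of heterotrimeric G proteins, at 1707, 1834 and 1708 FPKM in AOC and 0, 0.03 and 0.308 FPKM in IEC4 (log2 fold change 10.63 ± 0.13 SE, limma adjusted p = 1.27e-08). LGALS1, the glycan-binding protein galectin-1, was abundant in AOC at 803, 846 and 971 FPKM but not absent from IEC4, at 8.84, 10.3 and 18.3 FPKM (log2 fold change 6.08 ± 0.24 SE, limma adjusted p = 6.7e-07). GASK1B, a Golgi kinase-like protein, had 220.4, 239 and 193 FPKM in AOC and 0.385, 0.0548 and 0.202 FPKM in IEC4 (log2 fold change 7.50 ± 0.15 SE, limma adjusted p = 6.86e-08). GNG11 and GASK1B thus stood above 100 FPKM in every AOC library and under 1 FPKM in every day 4 library.

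Some of the strongest AOC transcripts are better known from immune or nerve cells. CD86, a co-stimulatory ligand for T cells, had 306, 278 and 323 FPKM in AOC and 2.63, 1.67 and 2.14 FPKM in IEC4 (log2 fold change 6.60 ± 0.14 SE, limma adjusted p = 6.86e-08). LAPTM5, a lysosomal membrane protein named for its expression in blood cells, had 175, 187 and 130.0 FPKM in AOC and 0.181, 0.52 and 1.36 FPKM in IEC4 (log2 fold change 6.65 ± 0.26 SE, limma adjusted p = 6.75e-07). The defining blood marker PTPRC (CD45) was listed at 0 in every AOC library and had 3.49, 2.71 and 2.14 FPKM in IEC4. Another blood marker, SPI1, was higher in AOC, at 5.88, 4.43 and 5.33 FPKM in AOC and 1.22, 1.79 and 1.69 FPKM in IEC4 (log2 fold change 1.28 ± 0.17 SE, limma adjusted p = 0.000229). NPY, the precursor of neuropeptide Y, had 97.2, 119 and 90.5 FPKM in AOC and was listed at 0 in IEC4 (limma adjusted p = 6.86e-08), and the lectin CLEC2B had 73.3, 74.5 and 86.5 FPKM in AOC and 0, 0.18 and 0 FPKM in IEC4 (log2 fold change 6.22 ± 0.15 SE, limma adjusted p = 8.16e-08).

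Across the endothelial identity list, 22 of 25 tested members passed the 2-fold rule as higher in AOC and 1 as lower, with a median log2 fold change of 2.99. The shares over all genes were 14.1% and 30.3%. Of 40 genes listed, 32 were found by symbol and 7 of those were too low to be tested, among them TIE1, FLT4, PLVAP and LYVE1. Members under 1 FPKM in every IEC4 library, such as CDH5 and CD34, passed the filter only through AOC. The count and the median of the list thus follow in part from the filter. The summed FPKM of the 32 members found was 803 to 1019 in AOC and 20.6 to 33.4 in IEC4. CD34, a sialomucin of endothelial and progenitor cells, had 30.9, 34.1 and 18.2 FPKM in AOC and 0.0154, 0 and 0.193 FPKM in IEC4 (log2 fold change 4.71 ± 0.24 SE, limma adjusted p = 2.16e-06). ESAM, a junctional adhesion molecule, had 68.5, 75.7 and 39.5 FPKM in AOC and 0, 0.105 and 0.201 FPKM in IEC4 and RAMP2, a co-receptor for adrenomedullin, 42.4, 66.8 and 60.4 FPKM in AOC and 0.934, 0.528 and 0.981 FPKM in IEC4. EMCN, the endothelial sialomucin endomucin, had 23, 36.3 and 31.2 FPKM in AOC and 0.0394, 0.301 and 0.0477 FPKM in IEC4. VWF could not be matched by symbol and has no value here.

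AOC was not high for every endothelial gene. KDR, the main VEGF receptor, was low in both groups, at 1.32, 1.31 and 1.46 FPKM in AOC and 0, 0.302 and 0.154 FPKM in IEC4 (log2 fold change 1.04 ± 0.13 SE, limma adjusted p = 0.000184), and fell short of the 2-fold limit when IEC4 A was left out or at equal totals (log2 fold change 0.95 and 0.96). NOS3, which makes nitric oxide in endothelium, had 3.41, 4.22 and 3.11 FPKM in AOC and 0.575, 0.585 and 0.613 FPKM in IEC4 (log2 fold change 1.52 ± 0.14 SE, limma adjusted p = 3.85e-05). FLT1, a VEGF receptor and decoy, had 2.49, 2.22 and 2.19 FPKM in AOC and 0.298, 0.00917 and 1.3 FPKM in IEC4, and the angiopoietin receptor TEK had 3.26, 8.34 and 5.26 FPKM in AOC and 0.148, 0.148 and 0.536 FPKM in IEC4. ENG, the TGF-β co-receptor endoglin, was the exception to the list, with 1.23, 1.02 and 0.361 FPKM in AOC and 3.83, 2.46 and 3.48 FPKM in IEC4 (log2 fold change -1.20 ± 0.22 SE, limma adjusted p = 0.00159). That difference stayed negative but no longer passed the 2-fold limit without AOC C (log2 fold change -0.99) or after scaling by the median of ratios (-0.93).

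The transcription factors of endothelium were split. In that list, 6 of 14 tested members passed the 2-fold rule as higher in AOC and 5 as lower, with a median log2 fold change of 0.43, and after scaling by the median of ratios the counts were 7 higher and 3 lower. FLI1, an ETS factor required for vessel development, had 56.1, 50.7 and 55.1 FPKM in AOC and was listed at 0 in IEC4 (limma adjusted p = 7.16e-08). ERG, its close relative, had 29.7, 27.1 and 18.7 FPKM in AOC and 0.424, 0.195 and 0.0248 FPKM in IEC4 (log2 fold change 4.42 ± 0.22 SE, limma adjusted p = 1.76e-06). HEY2, a Notch effector of arterial cells, had 19.1, 17.3 and 14.5 FPKM in AOC and 4.14, 1.26 and 1.64 FPKM in IEC4 (log2 fold change 2.51 ± 0.30 SE, limma adjusted p = 0.000143).

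The factors that were higher on day 4 included NR2F2, a venous and mesodermal nuclear receptor, at 0.565, 0.577 and 0.507 FPKM in AOC and 3.66, 4.32 and 7.43 FPKM in IEC4 (log2 fold change -1.94 ± 0.22 SE, limma adjusted p = 0.000119). MEF2C, which acts in mesoderm, heart and vessels, had 0.0182, 0.00891 and 0.00442 FPKM in AOC and 2.33, 3.58 and 2.76 FPKM in IEC4 (log2 fold change -1.93 ± 0.15 SE, limma adjusted p = 1.27e-05). EPAS1, the hypoxia-inducible factor HIF2A, had 9.14, 9.89 and 4.32 FPKM in AOC and 31.7, 21.9 and 13.5 FPKM in IEC4 (log2 fold change -1.40 ± 0.36 SE, limma adjusted p = 0.00784), a call lost after scaling by the median of ratios (log2 fold change -0.99). SOX18, ETV2, KLF2 and PROX1 were below the filter, with SOX18 listed at 0 in all IEC4 libraries and at 0.0234 to 0.0241 FPKM in AOC. The day 4 cells, labelled induced endothelial cells, thus had CDH5, ECSCR, CLEC14A and FLI1 listed at 0 in all 3 libraries, and their label is used here for the stage of induction only.

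**Figure D2:**
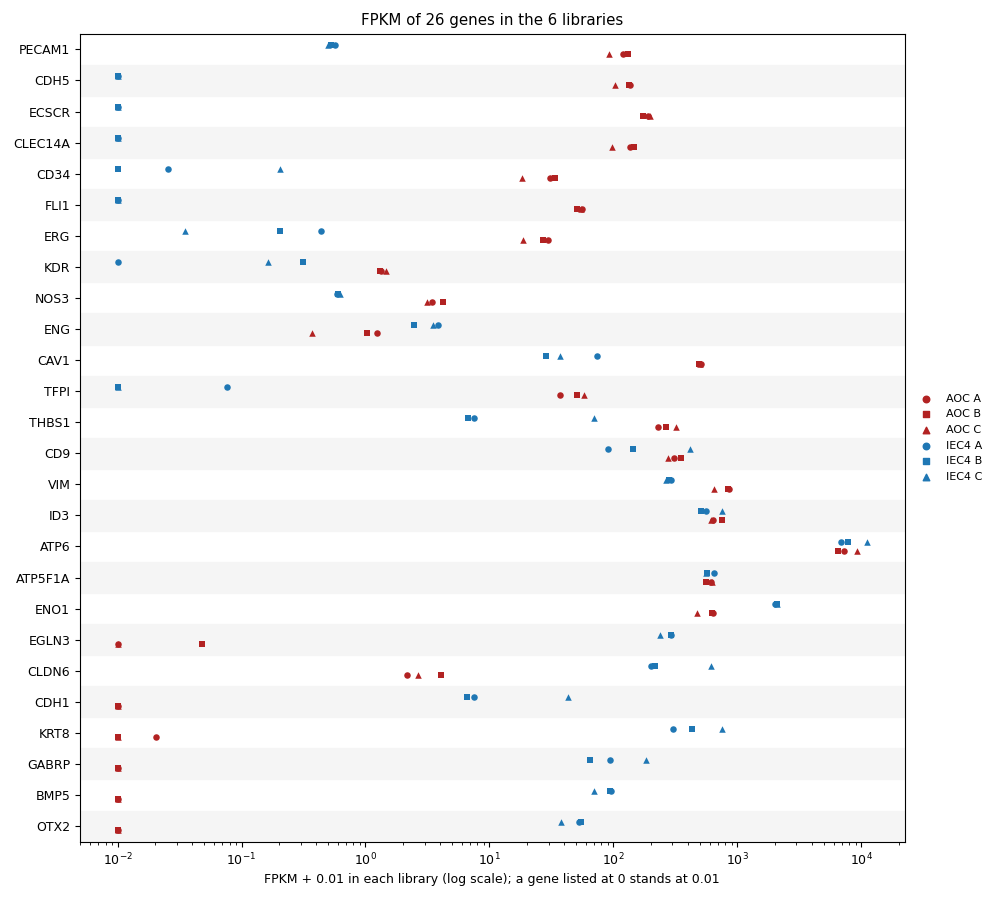
FPKM + 0.01 on a log axis for 26 genes (rows) in the 6 libraries, AOC in red and IEC4 in blue with a marker for each replicate letter; a gene listed at 0 stands at 0.01. The endothelial genes at the top separate by orders of magnitude apart from KDR, NOS3 and ENG, the groups mix for CD9, ID3, ATP6 and ATP5F1A, and IEC4 C lies apart from IEC4 A and B for THBS1, CLDN6 and CDH1.

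Genes of the endothelial surface and its secretions went with the line. In the list of caveolae and membrane adhesion, 6 of 11 tested members passed the 2-fold rule as higher in AOC and 1 as lower, with a median log2 fold change of 1.73. CAV1, the scaffold of caveolae, had 513, 489.7 and 499 FPKM in AOC and 73.5, 28.5 and 37.4 FPKM in IEC4 (log2 fold change 3.52 ± 0.30 SE, limma adjusted p = 2.33e-05), and its partner CAV2 had 170.3, 176 and 178 FPKM in AOC and 13.5, 12 and 15.2 FPKM in IEC4 (log2 fold change 3.60 ± 0.11 SE, limma adjusted p = 2.79e-07). CAVIN3, a coat protein of caveolae, had 12, 17.1 and 13.4 FPKM in AOC and 0.317, 0.433 and 0.549 FPKM in IEC4 (log2 fold change 3.39 ± 0.17 SE, limma adjusted p = 2.13e-06). EHD2, the ATPase at the caveolar neck, ran the other way, with 6.63, 5.34 and 2.29 FPKM in AOC and 44.5, 32.4 and 41.8 FPKM in IEC4 (log2 fold change -2.89 ± 0.30 SE, limma adjusted p = 6.97e-05). CD9, a tetraspanin, did not separate the groups, at 308, 351 and 276 FPKM in AOC and 91, 144 and 418 FPKM in IEC4 (log2 fold change 0.81 ± 0.48 SE, limma adjusted p = 0.159). Its difference was 1.43 and passed the 2-fold rule without IEC4 C (limma adjusted p = 0.000785). IEC4 C alone was above the AOC values.

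Of the coagulation and fibrinolysis genes, 10 of 17 tested members passed the 2-fold rule as higher in AOC and 2 as lower, with a median log2 fold change of 1.96. Tissue factor pathway inhibitor TFPI, which blocks the start of clotting, had 36.8, 51.4 and 58.5 FPKM in AOC and 0.067, 0 and 0 FPKM in IEC4 (log2 fold change 5.58 ± 0.19 SE, limma adjusted p = 3.57e-07), and its paralogue TFPI2 had 130.3, 136 and 137 FPKM in AOC and 1.77, 1.36 and 3.46 FPKM in IEC4 (log2 fold change 5.46 ± 0.22 SE, limma adjusted p = 8.33e-07). PROCR, the endothelial receptor of protein C, had 29.2, 24.2 and 19.3 FPKM in AOC and 0.143, 0.268 and 0.704 FPKM in IEC4 (log2 fold change 4.20 ± 0.22 SE, limma adjusted p = 2.14e-06). THBS1, the matrix glycoprotein thrombospondin-1, had 229, 268 and 319.8 FPKM in AOC and 7.45, 6.67 and 70.1 FPKM in IEC4 (log2 fold change 4.02 ± 0.76 SE, limma adjusted p = 0.00174), and its difference was 5.07 without IEC4 C. F2RL1, a protease-activated receptor of epithelia, was lower in AOC, at 0.11, 0 and 0.106 FPKM in AOC and 11.9, 9.75 and 55.7 FPKM in IEC4 (log2 fold change -4.21 ± 0.56 SE, limma adjusted p = 0.000254), and at -3.46 without IEC4 C.

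Inflammatory and antigen presentation genes were mostly higher in AOC where they passed. In the inflammatory and leukocyte adhesion list, 9 of 20 tested members passed the 2-fold rule as higher in AOC and 3 as lower, with a median log2 fold change of 0.84. SELP, the platelet and endothelial selectin stored with VWF, had 65.1, 60.9 and 50 FPKM in AOC and 0, 0.0975 and 0 FPKM in IEC4 (log2 fold change 5.85 ± 0.15 SE, limma adjusted p = 1.26e-07). VCAM1, an adhesion molecule for leukocytes, had 47.9, 46.9 and 34.8 FPKM in AOC and 0, 0.0132 and 3.83 FPKM in IEC4 (log2 fold change 4.69 ± 0.57 SE, limma adjusted p = 0.000148), or a log2 fold change of 5.44 without IEC4 C. TLR4, the receptor for lipopolysaccharide, had 46.9, 51.6 and 42.3 FPKM in AOC and 0.917, 0.782 and 2.65 FPKM in IEC4 (log2 fold change 4.36 ± 0.27 SE, limma adjusted p = 4.99e-06). IL6, an inflammatory cytokine, was lower in AOC, with 0.562, 0.549 and 0.928 FPKM in AOC and 11, 11.2 and 25.3 FPKM in IEC4 (log2 fold change -3.23 ± 0.31 SE, limma adjusted p = 4.35e-05), and CXCL12, a chemokine of progenitor homing, had 0.14, 0.0242 and 0.144 FPKM in AOC and 4.07, 1.07 and 3.17 FPKM in IEC4 (log2 fold change -1.68 ± 0.30 SE, limma adjusted p = 0.00137).

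In the antigen presentation and interferon list, 9 of 15 tested members passed the 2-fold rule as higher in AOC and 3 as lower, with a median log2 fold change of 1.10, and no member was lower after scaling by the median of ratios. ISG15, a ubiquitin-like interferon target, had 135, 136 and 186 FPKM in AOC and 2.69, 2.7 and 5.19 FPKM in IEC4 (log2 fold change 5.12 ± 0.23 SE, limma adjusted p = 1.22e-06). IFIT1, which binds foreign RNA, had 32.2, 31 and 25.8 FPKM in AOC and 3.64, 4.51 and 3.69 FPKM in IEC4 (log2 fold change 2.63 ± 0.15 SE, limma adjusted p = 3.09e-06) and its relative IFIT2 had 9.33, 7.43 and 6.88 FPKM in AOC and 0.139, 0.174 and 0 FPKM in IEC4 (log2 fold change 3.001 ± 0.16 SE, limma adjusted p = 2.53e-06). MX1, an antiviral GTPase, stood lower in AOC at 16.5, 16.3 and 11.3 FPKM in AOC and 37.9, 30.4 and 31.1 FPKM in IEC4 (log2 fold change -1.13 ± 0.17 SE, limma adjusted p = 0.000554), but its call was lost after scaling by the median of ratios (log2 fold change -0.70) and without AOC C (-0.96). None of the classical class I genes on the list could be matched by symbol.

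The largest difference in FPKM between the group means was that of the actin regulator TMSB10, thymosin beta 10, which binds actin monomers. It had 35131, 37311 and 37567 FPKM in AOC and 989, 1013 and 2101 FPKM in IEC4 (log2 fold change 4.84 ± 0.28 SE, limma adjusted p = 3.66e-06). It alone was 8.17% to 8.74% of the summed FPKM of each AOC library and 0.284% to 0.554% of each IEC4 library. In the actin and contractile list, 5 of 22 tested members passed the 2-fold rule as higher in AOC and 9 as lower, with a median log2 fold change of -0.31. After scaling by the median of ratios the counts were 7 higher and 5 lower, with a median of 0.07. The median was -0.47 without IEC4 B and -0.11 without IEC4 C. PFN1, profilin-1, had 90.8, 63.5 and 44 FPKM in AOC and 2.28, 1.66 and 3.43 FPKM in IEC4 (log2 fold change 4.25 ± 0.29 SE, limma adjusted p = 7.32e-06). TPM2, beta-tropomyosin, was among the 12 largest differences toward IEC4, at 0.788, 0.812 and 0.575 FPKM in AOC and 243, 244 and 339.6 FPKM in IEC4 (log2 fold change -7.31 ± 0.16 SE, limma adjusted p = 6.86e-08), and MYL9, a regulatory myosin light chain, had 2.51, 2.01 and 1.07 FPKM in AOC and 25.9, 19 and 41.3 FPKM in IEC4 (log2 fold change -3.34 ± 0.30 SE, limma adjusted p = 3.29e-05).

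Calcium- and phospholipid-binding annexins and the S100 proteins that pair with them were mostly higher in the line. In the list of annexins, S100 proteins and galectins, 9 of 15 tested members passed the 2-fold rule as higher in AOC and 4 as lower, with a median log2 fold change of 1.79. ANXA2, which organises membrane and plasmin activation, had 1627, 1860 and 1725 FPKM in AOC and 132, 145 and 276 FPKM in IEC4 (log2 fold change 3.31 ± 0.26 SE, limma adjusted p = 1.52e-05), and ANXA5, which covers phosphatidylserine, had 1127, 1119 and 1097 FPKM in AOC and 148, 117 and 168 FPKM in IEC4 (log2 fold change 2.96 ± 0.14 SE, limma adjusted p = 1.52e-06). ANXA6, the annexin with a doubled core, was lower in AOC, at 23, 23.7 and 12 FPKM in AOC and 119.9, 134 and 96.9 FPKM in IEC4 (log2 fold change -2.57 ± 0.26 SE, limma adjusted p = 5.48e-05). S100A14, an epithelial member, was also lower, at 0.107, 0.139 and 0 FPKM in AOC and 7.3, 7.86 and 17.4 FPKM in IEC4 (log2 fold change -3.36 ± 0.30 SE, limma adjusted p = 2.81e-05).

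Matrix genes did not move as a group. For collagens and matrix, 8 of 34 tested members passed the 2-fold rule as higher in AOC and 8 as lower, with a median log2 fold change of -0.14. This median changed sign, to 0.21 after scaling by the median of ratios and to 0.11 without IEC4 C. The counts were 10 higher and 7 lower after scaling by the median of ratios, and 8 higher and 12 lower at equal totals. CCN2, a matricellular growth factor, had 227, 309.9 and 255 FPKM in AOC and 2.89, 3.57 and 18 FPKM in IEC4 (log2 fold change 5.24 ± 0.54 SE, limma adjusted p = 6.22e-05), or 5.96 without IEC4 C. FBLN5, an elastic fibre protein, had 79, 131 and 52.5 FPKM in AOC and 0.837, 1.04 and 3.62 FPKM in IEC4 (log2 fold change 4.997 ± 0.42 SE, limma adjusted p = 2.2e-05), and MGP, an inhibitor of calcification, varied widely within AOC at 8.3, 109 and 43.1 FPKM against 0.361, 0.0147 and 0.0168 FPKM in IEC4 (log2 fold change 4.99 ± 0.77 SE, limma adjusted p = 0.000543), with 5.96 without AOC A and 4.18 without AOC B. FBN2, the fibrillin of embryonic tissue, was lower in AOC, at 0.0101, 0 and 0.00488 FPKM in AOC and 9.5, 9.25 and 11.6 FPKM in IEC4 (log2 fold change -3.46 ± 0.14 SE, limma adjusted p = 8.79e-07). For integrins, 2 of 8 tested members passed the 2-fold rule as higher in AOC and 0 as lower, with a median log2 fold change of 0.46, with ITGB5, the beta subunit of a vitronectin receptor, at 5.34, 6.86 and 5.36 FPKM in AOC and 0.0377, 0.23 and 0.896 FPKM in IEC4 (log2 fold change 2.34 ± 0.24 SE, limma adjusted p = 5.65e-05). Without IEC4 C the integrins had 4 members higher and a median of 0.80, and without AOC B a median of 0.28.

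Epithelial markers were among the genes higher in day 4 cells, and KRT8 had the largest difference in that direction. KRT8 (ENSSSCG00000000252, chromosome 5, 18172423 to 18180277), a keratin of simple epithelia, had 0.0106, 0 and 0 FPKM in AOC and 300.4, 435 and 748 FPKM in IEC4 (log2 fold change -8.85 ± 0.29 SE, limma adjusted p = 3.15e-07). Its dimer partner KRT18 was listed at 0 in AOC and had 8.42, 20.5 and 28.9 FPKM in IEC4 (limma adjusted p = 3.21e-05). In the epithelial list, 0 of 19 tested members passed the 2-fold rule as higher in AOC and 15 as lower, with a median log2 fold change of -3.14, with the same 15 and 0 under the scaling by median of ratios, at equal totals and without IEC4 C. Members under 1 FPKM in every AOC library, such as KRT8 and KRT18, passed the filter only through IEC4. These counts and the median thus follow in part from the filter. The summed FPKM of the 28 members of the epithelial list that were found was 51.3 to 58.9 in AOC and 659 to 1828 in IEC4.

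CDH1, the epithelial cadherin, was listed at 0 in AOC and had 7.51, 6.54 and 42.8 FPKM in IEC4 (limma adjusted p = 0.000633). CLDN6, a claudin of early embryonic epithelium, had 2.16, 4.05 and 2.64 FPKM in AOC and 202, 216 and 612 FPKM in IEC4 (log2 fold change -6.28 ± 0.41 SE, limma adjusted p = 6.27e-06). PERP, a desmosomal p53 target, had 0.101, 0.138 and 0.0784 FPKM in AOC and 99.8, 107 and 184 FPKM in IEC4 (log2 fold change -6.84 ± 0.23 SE, limma adjusted p = 3.39e-07), and PSCA, a GPI-anchored surface protein, had 0, 0.0921 and 0 FPKM in AOC and 76.8, 95.1 and 115 FPKM in IEC4 (log2 fold change -6.53 ± 0.17 SE, limma adjusted p = 1.26e-07). IEC4 C had the highest value of the 3 in each of these 4 genes, and the groups did not overlap with or without it. For PERP and PSCA the rule that chose them required non-overlap. EPCAM stayed under the filter, at 0 to 0.0403 FPKM in AOC and 0.166 to 2.21 FPKM in IEC4.

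Markers of amnion and trophoblast were also on the day 4 side, where 0 of 9 tested members passed the 2-fold rule as higher in AOC and 6 as lower, with a median log2 fold change of -1.56. GABRP, a GABA receptor subunit used as an amnion marker, was listed at 0 in AOC and had 93.9, 64.6 and 184 FPKM in IEC4 (limma adjusted p = 1.96e-06). KRT7, a keratin of trophoblast and other simple epithelia, had 0.825, 1.03 and 0.8 FPKM in AOC and 17.1, 18.2 and 62.5 FPKM in IEC4 (log2 fold change -3.90 ± 0.44 SE, limma adjusted p = 0.000109), or -3.31 without IEC4 C. DLX5, a homeobox gene, had 0, 0 and 0.0361 FPKM in AOC and 5.51, 4.45 and 7.94 FPKM in IEC4 (log2 fold change -2.75 ± 0.19 SE, limma adjusted p = 8.91e-06). The defining factors CDX2 (listed at 0 in all 6 libraries), TFAP2B, TFAP2C, TP63 and ELF5 stayed under 1 FPKM in every library, and GATA3 had 0.822, 0.631 and 0.666 FPKM in AOC and 1.61, 1.16 and 2.92 FPKM in IEC4 (log2 fold change -0.72 ± 0.22 SE, limma adjusted p = 0.017). GABRP and DLX5 passed the filter only through IEC4, so the count and median of this list follow in part from the filter. The part of any amnion or trophoblast cells in the epithelial values was not tested.

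Few pluripotency genes passed the filter. Of 18 pluripotency genes found, 5 were tested, and all 5 were lower in AOC (median log2 fold change -2.36). OTX2, a head and epiblast homeobox factor, was listed at 0 in AOC and had 53.1, 54.6 and 37.5 FPKM in IEC4 (limma adjusted p = 2.79e-07). LIN28A, an RNA-binding protein of pluripotent cells, had 3.94, 3.01 and 5.86 FPKM in IEC4 and was listed at 0 in AOC. Both OTX2 and LIN28A thus passed the filter only through IEC4. NANOG did not reach 1 FPKM in any library, and POU5F1 and SOX2 could not be matched by symbol.

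The mesoderm genes of the induction were mostly low on both sides. MIXL1, EOMES and GATA4 were listed at 0 in all 6 libraries, MESP1 had 0.328, 0.481 and 0.397 FPKM in AOC and 0.0239, 0.228 and 0.376 FPKM in IEC4 and PDGFRA 0.0907, 0 and 0.1 FPKM in AOC and 0.801, 0.74 and 0.217 FPKM in IEC4. MESP2, a segmentation factor, had 3.02, 3.49 and 2.95 FPKM in AOC and 1.41, 1.39 and 1.35 FPKM in IEC4 (log2 fold change 0.80 ± 0.13 SE, limma adjusted p = 0.000866), short of the 2-fold limit except after scaling by the median of ratios or with a pseudocount of 0.1. In the list, 2 of 10 tested members passed the 2-fold rule as higher in AOC and 4 as lower, with a median log2 fold change of 0.33. Without IEC4 A 1 member was higher and the median was 0.17, and without IEC4 C the median was 0.59. HAND2, a mesodermal bHLH factor, was higher in AOC at 45.4, 36.8 and 33.8 FPKM in AOC and 4.9, 5.14 and 3.42 FPKM in IEC4 (log2 fold change 2.86 ± 0.18 SE, limma adjusted p = 5.13e-06), whereas its relative HAND1 was listed at 0 in AOC and had 6.59, 6.38 and 9.98 FPKM in IEC4 (limma adjusted p = 3.89e-06). CDX4, a posterior homeobox factor, was listed at 0 in AOC and had 24.1, 20.8 and 6.94 FPKM in IEC4 (limma adjusted p = 5.1e-05).

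WNT pathway genes lay on the day 4 side. In that list, 2 of 12 tested members passed the 2-fold rule as higher in AOC and 9 as lower, with a median log2 fold change of -1.97. LEF1, a nuclear effector and target of the pathway, had 0.00653, 0 and 0 FPKM in AOC and 11.1, 11.4 and 10.1 FPKM in IEC4 (log2 fold change -3.56 ± 0.13 SE, limma adjusted p = 5.54e-07). The secreted antagonists were divided, since SFRP1 was listed at 0 in AOC and had 17.9, 16.2 and 44.1 FPKM in IEC4 (limma adjusted p = 1.21e-05), while WIF1 had 48.4, 53.6 and 51.2 FPKM in AOC and 0, 0 and 0.15 FPKM in IEC4 (log2 fold change 5.63 ± 0.14 SE, limma adjusted p = 1.13e-07). CTNNB1, the β-catenin transducer, did not pass, at 105, 125 and 80.5 FPKM in AOC and 117, 108 and 99.8 FPKM in IEC4 (95% interval of the log2 fold change -0.47 to 0.30).

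For BMP ligands, receptors and targets, 2 of 14 tested members passed the 2-fold rule as higher in AOC and 7 as lower, with a median log2 fold change of -0.95. BMP5, a ligand, was listed at 0 in AOC and had 96.3, 94.6 and 70.2 FPKM in IEC4 (limma adjusted p = 1.13e-07). The receptors diverged: BMPR1A had 0.234, 0.391 and 0.361 FPKM in AOC and 6.38, 6.77 and 7.77 FPKM in IEC4 (log2 fold change -2.58 ± 0.14 SE, limma adjusted p = 2.99e-06) and ACVR1 1.89, 2.35 and 2.1 FPKM in AOC and 12.5, 13.2 and 13.3 FPKM in IEC4 (log2 fold change -2.17 ± 0.14 SE, limma adjusted p = 5.69e-06), while ACVRL1, the endothelial ALK1 receptor, had 1.24, 1.83 and 1.59 FPKM in AOC and 0.0755, 0.00534 and 0.0915 FPKM in IEC4 (log2 fold change 1.27 ± 0.13 SE, limma adjusted p = 5.64e-05). Among the effectors, SMAD9 had 0.508, 0.692 and 0.645 FPKM in AOC and 7.24, 8.85 and 8.74 FPKM in IEC4 (log2 fold change -2.52 ± 0.15 SE, limma adjusted p = 3.9e-06) and SMAD1 had 20.3, 26.5 and 16.3 FPKM in AOC and 9.09, 8.76 and 9.6 FPKM in IEC4 (log2 fold change 1.09 ± 0.18 SE, limma adjusted p = 0.000808). The SMAD1 call was lost at equal totals (log2 fold change 0.85) and without AOC B (0.92). The ID target genes, inhibitors of bHLH factors, differed too. ID2 had 3.82, 3.64 and 4.02 FPKM in AOC and 18.8, 19.2 and 39.5 FPKM in IEC4 (log2 fold change -2.39 ± 0.27 SE, limma adjusted p = 0.000108), whereas ID3 was high in both groups.

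For TGF-β and activin genes, 3 of 14 tested members passed the 2-fold rule as higher in AOC and 4 as lower, with a median log2 fold change of -0.44. The median was -0.02 after scaling by the median of ratios, and the counts were then 3 higher and 1 lower. The ligand TGFB1 was under the filter, at 0.314, 0.257 and 0.239 FPKM in AOC and 0.81, 0.741 and 1.03 FPKM in IEC4. The signal transducer SMAD3 had 2.45, 3 and 2.39 FPKM in AOC and 2.51, 2.97 and 3 FPKM in IEC4 (95% interval -0.43 to 0.26), and SMAD2 had 6.23, 6.56 and 7.41 FPKM in AOC and 8.84, 10.2 and 10.1 FPKM in IEC4 (log2 fold change -0.47 ± 0.14 SE, limma adjusted p = 0.0153), a difference close to the median over all genes. The latent-complex protein LTBP2 was higher in AOC, at 9.73, 12.2 and 9.66 FPKM in AOC and 0.485, 0.276 and 2.27 FPKM in IEC4 (log2 fold change 2.64 ± 0.34 SE, limma adjusted p = 0.000203), and LTBP1 lower, at 0.248, 0.572 and 0.447 FPKM in AOC and 4.12, 2.97 and 2.43 FPKM in IEC4 (log2 fold change -1.54 ± 0.18 SE, limma adjusted p = 0.000136, -0.68 and not called once a trend on gene span was removed). TGFBR2, the type II receptor, had 5.73, 8.19 and 8.1 FPKM in AOC and 2.36, 1.92 and 3.72 FPKM in IEC4 (log2 fold change 1.20 ± 0.22 SE, limma adjusted p = 0.00161), which fell to 0.99 and under the 2-fold limit at equal totals.

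Markers of other lineages gave short lists. For neural markers, 2 of 8 tested members passed the 2-fold rule as higher in AOC and 6 as lower, with a median log2 fold change of -2.69. MAP2, a dendritic microtubule protein, had 0, 0.0898 and 0.0148 FPKM in AOC and 15.3, 15.5 and 15 FPKM in IEC4 (log2 fold change -3.97 ± 0.14 SE, limma adjusted p = 3.45e-07) and TUBB3, a neuronal tubulin, 6.4, 9.55 and 6.98 FPKM in AOC and 0.0505, 0.0402 and 0 FPKM in IEC4 (log2 fold change 3.05 ± 0.17 SE, limma adjusted p = 2.94e-06). For mural and fibroblast markers, 2 of 8 tested members passed the 2-fold rule as higher in AOC and 5 as lower, with a median log2 fold change of -1.51. COL1A2 had 15.5, 13.2 and 13.1 FPKM in AOC and 0, 0.189 and 0.725 FPKM in IEC4 (log2 fold change 3.55 ± 0.22 SE, limma adjusted p = 4.85e-06) while COL3A1, another fibrillar collagen chain, had 6.37, 5.82 and 4.49 FPKM in AOC and 40.6, 52.9 and 43.2 FPKM in IEC4 (log2 fold change -2.83 ± 0.16 SE, limma adjusted p = 3.59e-06). RGS5 was also lower in AOC, at 0.0152, 0 and 0 FPKM in AOC and 24.6, 7.6 and 3.93 FPKM in IEC4 (log2 fold change -3.35 ± 0.52 SE, limma adjusted p = 0.000557). Its difference was -2.70 without IEC4 A. PRRX1 was lower too, at 0.961, 1.29 and 1.21 FPKM in AOC and 19.1, 17.5 and 15 FPKM in IEC4 (log2 fold change -3.07 ± 0.16 SE, limma adjusted p = 2.03e-06). The mural markers PDGFRB, TAGLN, CNN1, MYH11 and CSPG4 did not reach 1 FPKM in any library. Only TNNC1, the slow troponin C, was tested of 12 cardiac genes found, at 0.0891, 0 and 0 FPKM in AOC and 7.46, 12.2 and 13.5 FPKM in IEC4 (log2 fold change -3.51 ± 0.22 SE, limma adjusted p = 4.85e-06).

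For blood cell markers, 2 of 8 tested members passed the 2-fold rule as higher in AOC and 3 as lower, with a median log2 fold change of -0.03. That median is near 0 and changed sign, to 0.22 after scaling by the median of ratios. The members higher in AOC were LAPTM5 and SPI1, and those lower were LCP1, AIF1 and PTPRC. CSF1R, CD3E, CD79A, HBB and TYROBP were under 1 FPKM in every library. For endoderm markers, 2 of 5 tested members passed the 2-fold rule as higher in AOC and 1 as lower, with a median log2 fold change of 0.90, with CXCR4, a chemokine receptor also used by endothelium, at 56.1, 76 and 58.3 FPKM in AOC and 0.644, 1.75 and 1.54 FPKM in IEC4 (log2 fold change 4.82 ± 0.23 SE, limma adjusted p = 1.37e-06). The other member higher in AOC was APOA1, an apolipoprotein of liver and gut, at 25.8, 38.9 and 24.8 FPKM in AOC and 1.43, 1.4 and 2.56 FPKM in IEC4 (log2 fold change 3.46 ± 0.23 SE, limma adjusted p = 7.33e-06), and the member lower was CLDN6, which is also on the epithelial list.

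Most genes of glycolysis and hypoxia were lower in AOC. In the glycolysis and hypoxia list, 3 of 26 tested members passed the 2-fold rule as higher in AOC and 21 as lower, with a median log2 fold change of -1.68, and 17 were lower after scaling by the median of ratios. EGLN3, a prolyl hydroxylase induced by hypoxia, had 0, 0.0378 and 0 FPKM in AOC and 292, 290.1 and 239.7 FPKM in IEC4 (log2 fold change -8.08 ± 0.13 SE, limma adjusted p = 1.89e-08). ENO2, an enolase of neurons, was listed at 0 in AOC and had 49, 50.1 and 37.2 FPKM in IEC4 (limma adjusted p = 1.93e-07), and PFKL, a phosphofructokinase, had 15.1, 11.4 and 5.75 FPKM in AOC and 114, 94.7 and 72.8 FPKM in IEC4 (log2 fold change -3.08 ± 0.31 SE, limma adjusted p = 6.06e-05). PGAM1, phosphoglycerate mutase, had 194, 202 and 166 FPKM in AOC and 1143, 956 and 868 FPKM in IEC4 (log2 fold change -2.39 ± 0.14 SE, limma adjusted p = 3.43e-06). The 3 members higher in AOC were TXNIP, an inhibitor of glucose uptake, at 14.6, 15.2 and 9.22 FPKM in AOC and 0.336, 0.287 and 4.86 FPKM in IEC4 (log2 fold change 2.67 ± 0.55 SE, limma adjusted p = 0.0028, or 3.39 without IEC4 C), the vasodilator peptide ADM, at 111, 129 and 83.5 FPKM in AOC and 38.7, 44.5 and 44.6 FPKM in IEC4 (log2 fold change 1.30 ± 0.17 SE, limma adjusted p = 0.000205), and HIF1A, at 84.2, 143 and 131 FPKM in AOC and 61.7, 53.4 and 47.5 FPKM in IEC4 (log2 fold change 1.09 ± 0.21 SE, limma adjusted p = 0.00161). HIF1A was not called at equal totals (0.84) or without AOC B (0.95). SLC2A5, the fructose transporter, was not on the list but among the 12 largest differences, listed at 0 in AOC with 166, 185 and 179 FPKM in IEC4 (limma adjusted p = 1.89e-08).

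**Figure D3:**
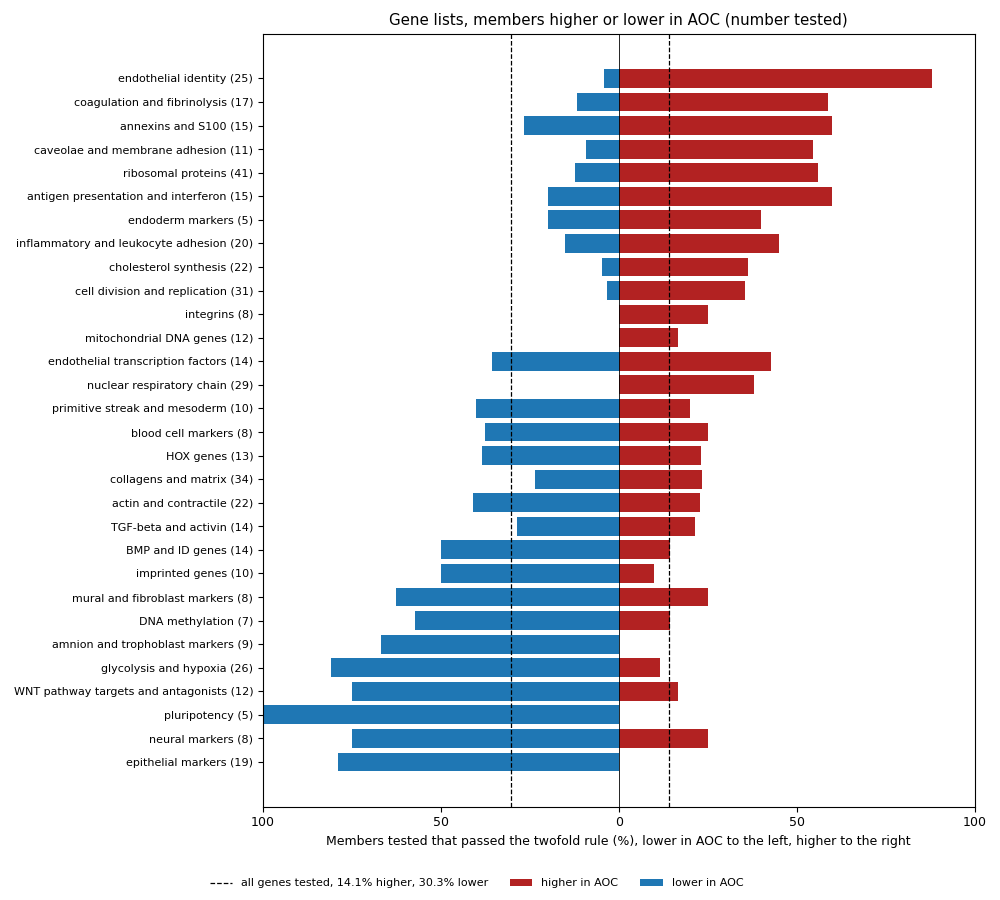
Share of the tested members of each gene list that passed the 2-fold rule, to the right where higher in AOC and to the left where lower, with the number tested in brackets and the shares of all genes as dashed lines (14.1% and 30.3%). Lists of at least 5 tested members are ordered by median log2 fold change, from endothelial identity at 2.99 to epithelial markers at -3.14.

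Respiratory chain genes, unlike those of glycolysis, were not mostly lower in AOC. Over all genes tested, 14.1% were higher and 30.3% lower. On the nuclear respiratory chain list 37.9% were higher and 0% lower, and of the mitochondrial DNA genes 16.7% and 0%. Of 12 genes found on mitochondrial DNA, 2 were higher in AOC and none lower (median log2 fold change 0.44). Without IEC4 C 5 were higher, with a median of 0.75, and without IEC4 A the median was 0.20. COX2, a subunit of cytochrome oxidase, had 9273, 7592 and 11150 FPKM in AOC and 1169, 1587 and 2491 FPKM in IEC4 (log2 fold change 2.47 ± 0.28 SE, limma adjusted p = 9.77e-05), whereas COX1, its partner, had 1768, 1977 and 2148 FPKM in AOC and 1944, 2154 and 2990 FPKM in IEC4 (log2 fold change -0.25 ± 0.18 SE, limma adjusted p = 0.238). For nuclear respiratory chain genes, 11 of 29 tested members passed the 2-fold rule as higher in AOC and 0 as lower, with a median log2 fold change of 0.36, and 1 was lower without AOC A, AOC B or IEC4 C. COX5B had 150.4, 129 and 118 FPKM in AOC and 3.72, 3.53 and 7.89 FPKM in IEC4 (log2 fold change 4.53 ± 0.26 SE, limma adjusted p = 3.43e-06) and the electron carrier CYCS 222, 205 and 220.4 FPKM in AOC and 39.9, 34.6 and 37.9 FPKM in IEC4 (log2 fold change 2.50 ± 0.10 SE, limma adjusted p = 8.33e-07).

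Of the ribosomal protein genes, 23 of 41 tested members passed the 2-fold rule as higher in AOC and 5 as lower, with a median log2 fold change of 1.56. RPL35 had 95.8, 89.2 and 79.2 FPKM in AOC and 3.03, 3.17 and 5.08 FPKM in IEC4 (log2 fold change 4.25 ± 0.18 SE, limma adjusted p = 9.56e-07) and RPL27 892, 827 and 921 FPKM in AOC and 47.8, 51.9 and 75.3 FPKM in IEC4 (log2 fold change 3.92 ± 0.17 SE, limma adjusted p = 1.05e-06), while RPLP0, the stalk protein, was lower in AOC at 851, 856 and 849 FPKM in AOC and 2912, 2773 and 2712 FPKM in IEC4 (log2 fold change -1.71 ± 0.10 SE, limma adjusted p = 3.65e-06). These genes have many processed copies, and their values are uncertain where reads could be split between copies. FAU, a fusion of a ubiquitin-like and a ribosomal protein, had 0.47, 0.294 and 0.37 FPKM in AOC and 1.93, 1.99 and 1.82 FPKM in IEC4 (log2 fold change -1.08 ± 0.12 SE, limma adjusted p = 8.57e-05), a call lost after scaling by the median of ratios (-0.87).

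Many ribosomal and respiratory genes are short, and the difference between the groups moved with gene span. A RefSeq span (the length from start to end of the gene on Sscrofa11.1) was found by symbol for 8108 of 8657 tested genes with a symbol. The median log2 fold change was 0.62 over the 120 genes of up to 2 kb, -0.25 over 501 genes of 2 to 5 kb and -0.71 over 1538 genes above 100 kb. The IEC4 replicates also differed among themselves by span. IEC4 A minus IEC4 C had a median of -0.53 over genes of up to 2 kb and -0.01 above 100 kb, against -0.07 and -0.04 for AOC A minus AOC B. With a smooth trend on span removed from each library, an alternative chosen after seeing the data, the ribosomal list had 23 members higher and 2 lower (median 1.58), and the endothelial identity list had 24 higher and 0 lower (median 3.24). The median of the mitochondrial DNA genes went to -0.18, with 2 members higher and none lower. The adjustment also recentred the values, to a median log2 fold change of -0.02 over its 8108 genes. Scaling by the median of ratios, without regard to span, gave 24 higher and 1 lower for the ribosomal list. For endothelial identity it gave 24 higher and 0 lower, so the part of span in these list counts cannot be told from that of recentring. For the nuclear respiratory chain the check is void, since only 17 of 29 tested members had a span. The part of span in single genes was not tested.

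**Figure D4:**
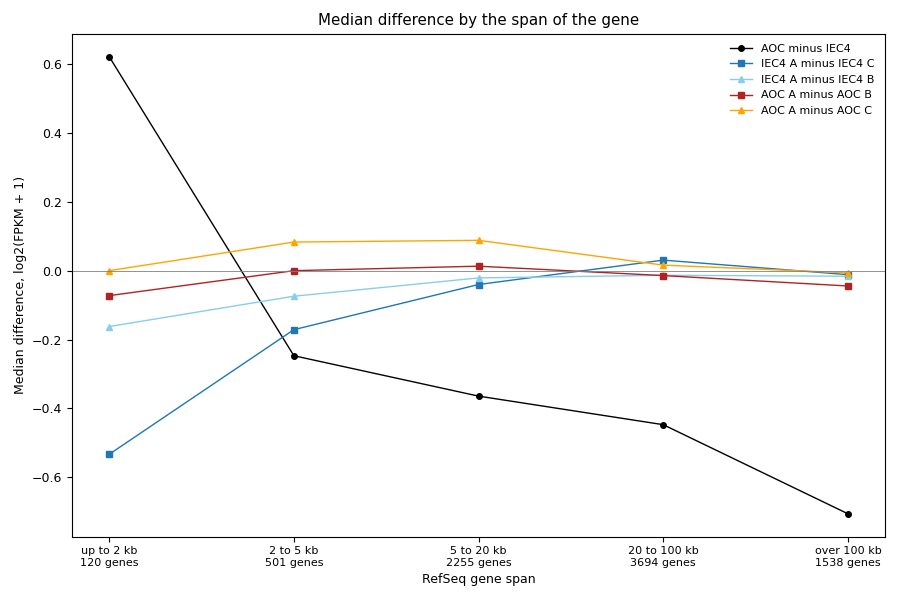
Median difference on the log2(FPKM + 1) scale (vertical axis) over genes grouped by RefSeq span (horizontal axis, with the number of genes), for AOC minus IEC4 in black and for pairs of replicates in colour. AOC minus IEC4 goes from 0.62 in the shortest genes to -0.71 in the longest, IEC4 A minus IEC4 C from -0.53 to -0.01, and the AOC pairs stay within 0.1 of 0.

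The remaining lists concern growth, sterols and epigenetic state. For cell division and replication, 11 of 31 tested members passed the 2-fold rule as higher in AOC and 1 as lower, with a median log2 fold change of 0.51. CDKN2A, a tumour suppressor locus that restrains the cell cycle, had 195, 238 and 169.6 FPKM in AOC and 7.97, 9.85 and 11.2 FPKM in IEC4 (log2 fold change 4.24 ± 0.17 SE, limma adjusted p = 6.75e-07), CCND1, cyclin D1, had 81.5, 117 and 106 FPKM in AOC and 5.95, 7.33 and 10.3 FPKM in IEC4 (log2 fold change 3.55 ± 0.21 SE, limma adjusted p = 3.88e-06), and the single member lower in AOC was the CDK inhibitor CDKN1A, at 204, 304 and 131 FPKM in AOC and 678, 519.7 and 656 FPKM in IEC4 (log2 fold change -1.60 ± 0.28 SE, limma adjusted p = 0.00109). Without AOC B 2 members were lower. For cholesterol synthesis, 8 of 22 tested members passed the 2-fold rule as higher in AOC and 1 as lower, with a median log2 fold change of 0.63, or 2 lower without IEC4 A. MSMO1, a sterol oxidase, had 702, 679 and 843 FPKM in AOC and 194, 249.6 and 175 FPKM in IEC4 (log2 fold change 1.85 ± 0.16 SE, limma adjusted p = 2.27e-05).

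For DNA methylation genes, 1 of 7 tested members passed the 2-fold rule as higher in AOC and 4 as lower, with a median log2 fold change of -1.51, and none was higher without IEC4 B. The de novo methyltransferase DNMT3B had 0.0235, 0.0843 and 0.038 FPKM in AOC and 4.63, 4.22 and 2.41 FPKM in IEC4 (log2 fold change -2.15 ± 0.20 SE, limma adjusted p = 3.61e-05) and its paralogue DNMT3A had 0.357, 0.485 and 0.354 FPKM in AOC and 3.71, 4.06 and 5.03 FPKM in IEC4 (log2 fold change -1.91 ± 0.15 SE, limma adjusted p = 1.42e-05). For imprinted genes, 1 of 10 tested members passed the 2-fold rule as higher in AOC and 5 as lower, with a median log2 fold change of -0.99. DIRAS3, a Ras-like gene imprinted in humans, had 0.672, 0.292 and 0.386 FPKM in AOC and 129, 138 and 114 FPKM in IEC4 (log2 fold change -6.47 ± 0.15 SE, limma adjusted p = 7.81e-08) and MEST, a hydrolase-like gene expressed from the paternal copy, 0.16, 0.176 and 0.208 FPKM in AOC and 71.8, 43.9 and 60.2 FPKM in IEC4 (log2 fold change -5.63 ± 0.19 SE, limma adjusted p = 3.6e-07). For HOX genes, 3 of 13 tested members passed the 2-fold rule as higher in AOC and 5 as lower, with a median log2 fold change of -0.04, a median that was 0.59 after scaling by the median of ratios. HOXB13, the most posterior gene of its cluster, had 1.09, 0.515 and 0.981 FPKM in AOC and 41.7, 31.9 and 25.6 FPKM in IEC4 (log2 fold change -4.18 ± 0.22 SE, limma adjusted p = 2.22e-06), whereas HOXA5 had 2.56, 2.8 and 3.01 FPKM in AOC and 0.287, 0.69 and 0.183 FPKM in IEC4 (log2 fold change 1.47 ± 0.16 SE, limma adjusted p = 9.95e-05).

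Of 14 chosen pairs of related genes, both members were tested in 7. The members were called in opposite directions in 2 of these pairs (CDH5 and CDH1, VIM and KRT8) and in the same direction in 2 (TFPI and TFPI2, DNMT3A and DNMT3B). In 2 pairs (ANXA1 and ANXA4, IGFBP2 and IGFBP7) 1 member was called, and neither ITGA5 nor ITGA6 was. CDH5 was listed at 0 throughout IEC4 and CDH1 throughout AOC, as described. The intermediate filament VIM, typical of mesenchyme and endothelium, was high in both at 855, 839 and 647 FPKM in AOC and 289.9, 281 and 267 FPKM in IEC4 (log2 fold change 1.47 ± 0.13 SE, limma adjusted p = 3.02e-05), while KRT8 was not. IGFBP2, an insulin-like growth factor binding protein, was listed at 0 in AOC and had 24.9, 29.1 and 29.8 FPKM in IEC4 (limma adjusted p = 2.01e-07), whereas IGFBP7 had 3.09, 4.18 and 3.4 FPKM in AOC and 4, 3.5 and 5.36 FPKM in IEC4 (95% interval -0.63 to 0.22). KLF5, a factor of epithelia and pluripotent cells, had 0.037, 0.012 and 0.0478 FPKM in AOC and 4.92, 5.13 and 9.48 FPKM in IEC4 (log2 fold change -2.81 ± 0.23 SE, limma adjusted p = 1.82e-05), while KLF2, the shear-responsive endothelial factor, stayed under the filter with 0.948, 0.689 and 0.707 FPKM in AOC and 0.0884, 0 and 0 FPKM in IEC4. GATA2 had 2.11, 2.05 and 1.76 FPKM in AOC and 1.42, 2.08 and 2.74 FPKM in IEC4 (95% interval -0.46 to 0.40).

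Several leading day 4 genes belong to no list. GPM6A, a neuronal membrane glycoprotein, was listed at 0 in AOC and had 391, 419 and 257 FPKM in IEC4 (limma adjusted p = 6.86e-08). BEX3 had 0.154, 0 and 0.15 FPKM in AOC and 254, 256 and 322 FPKM in IEC4 (log2 fold change -7.98 ± 0.14 SE, limma adjusted p = 3.16e-08) and TCEAL9 0.0853, 0.25 and 0.124 FPKM in AOC and 144, 159.6 and 156 FPKM in IEC4 (log2 fold change -7.07 ± 0.13 SE, limma adjusted p = 3.16e-08). LPL, lipoprotein lipase, was listed at 0 in AOC and had 182, 129 and 82.3 FPKM in IEC4 (limma adjusted p = 5.82e-07), and PKIB, an inhibitor of protein kinase A, had 0.0917, 0.224 and 0.0148 FPKM in AOC and 110.3, 119 and 132 FPKM in IEC4 (log2 fold change -6.77 ± 0.14 SE, limma adjusted p = 6.86e-08). Among the 333 lower genes past the study's limits, 92 were listed at 0 in every AOC library. Of the 232 higher genes, 19 were listed at 0 in every IEC4 library. The same counts over all genes tested were not taken. The AOC libraries were a little shallower, and the part of depth in these zeros was not tested.

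Genes high in AOC were then followed to day 4. High was taken as 100 FPKM or more in each of the 3 libraries of a group. By this measure 639 genes were high in AOC and 508 in IEC4, and 365 were high in both, which is 57.12% of the AOC genes and 71.85% of the IEC4 genes. Of the 365, 266 did not pass the 2-fold rule, 65 were higher in AOC and 34 lower, and their median log2 fold change was 0.16. The 95% interval of the difference lay within 2-fold either way for 218 of them, 59.73%.

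The lists were set against the 57.12% shared over all AOC-high genes. Of the 42 ribosomal protein genes found, 31 were high in AOC and 18 in both, close to that share. Of the 12 mitochondrial DNA genes 10 were high in AOC and 9 in both, and of the nuclear respiratory chain genes 12 were high in AOC and 6 in both. All 7 glycolysis genes high in AOC were also high in IEC4. Of the endothelial identity genes 2 were high in AOC and none in IEC4.

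ATP6, a subunit of ATP synthase, had the highest lowest value over the 6 libraries, at 7276, 6547 and 9186 FPKM in AOC and 6857, 7820 and 11155 FPKM in IEC4 (log2 fold change -0.15 ± 0.22 SE, limma adjusted p = 0.546). RPS3A had 2586, 2513 and 2803 FPKM in AOC and 2743, 3202 and 3319 FPKM in IEC4 (log2 fold change -0.23 ± 0.12 SE, limma adjusted p = 0.132) and the nucleic acid-binding protein CNBP 1306, 1220 and 1423 FPKM in AOC and 1639, 1511 and 1372 FPKM in IEC4 (log2 fold change -0.19 ± 0.12 SE, limma adjusted p = 0.171). PDIA3, a protein disulphide isomerase, had 1159, 1262 and 1199 FPKM in AOC and 1239, 1448 and 1269 FPKM in IEC4 (log2 fold change -0.12 ± 0.11 SE, limma adjusted p = 0.331). The values of these 4 genes overlapped between the groups, and the sign of each difference changed after scaling by the median of ratios, where they lay between 0.23 and 0.33.

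Of the other genes in this highest group, UBB, polyubiquitin, was higher in AOC at 4910, 4562 and 5516 FPKM in AOC and 1693, 1718 and 2070 FPKM in IEC4 (log2 fold change 1.45 ± 0.14 SE, limma adjusted p = 3.8e-05). OAZ1, which restrains polyamine synthesis, had 1934, 1847 and 1793 FPKM in AOC and 835, 891 and 893 FPKM in IEC4 (log2 fold change 1.09 ± 0.10 SE, limma adjusted p = 3.59e-05), a call lost at equal totals (log2 fold change 0.83). LDHA, lactate dehydrogenase A, was lower at 939, 816 and 936 FPKM in AOC and 2141, 1808 and 1556 FPKM in IEC4 (log2 fold change -1.02 ± 0.14 SE, limma adjusted p = 0.000332), a call lost after scaling by the median of ratios (-0.57), without AOC B (-0.96) and without IEC4 A (-0.91). CHCHD2, a mitochondrial regulator, had 1254, 1275 and 1425 FPKM in AOC and 814, 937 and 1060 FPKM in IEC4 (log2 fold change 0.50 ± 0.13 SE, limma adjusted p = 0.0086), and the mitochondrial genes CYTB and ND5 had 2644, 2471 and 3094 FPKM in AOC and 1337, 1754 and 2810 FPKM in IEC4 and 1012, 904 and 1056 FPKM in AOC and 1175, 1538 and 1927 FPKM in IEC4. RPL7 had 869, 878 and 893 FPKM in AOC and 979.6, 1122 and 1240 FPKM in IEC4 (log2 fold change -0.33 ± 0.12 SE, limma adjusted p = 0.032).

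The AOC-high genes with the smallest differences act in basic cell functions. MAGT1, a subunit of the glycosylation machinery, had 153, 159 and 193 FPKM in AOC and 162, 192 and 151 FPKM in IEC4 (95% interval of the log2 fold change -0.32 to 0.32). ATP5F1A, the alpha subunit of ATP synthase, had 609, 557 and 620.3 FPKM in AOC and 646, 574 and 559.7 FPKM in IEC4 (-0.24 to 0.26), and RAB1A, a GTPase of vesicle transport, had 198, 187 and 194 FPKM in AOC and 199, 202 and 176 FPKM in IEC4 (-0.23 to 0.24). TOMM22, an import receptor of mitochondria, had 136, 120.5 and 121 FPKM in AOC and 133, 125 and 125 FPKM in IEC4 (-0.25 to 0.22), and the histone chaperone NAP1L1 had 118, 115 and 122 FPKM in AOC and 114, 127 and 124 FPKM in IEC4 (-0.26 to 0.19). The other 5, ND1, HADHB, PSMD12, PCNP and NUPR1, had values from 116 to 686 FPKM in every library, and their groups overlapped. After scaling by the median of ratios TOMM22 was at 0.43 and NAP1L1 at 0.41, and at equal totals MAGT1 and RAB1A were at -0.26 and -0.25, so these small differences hold for the values as deposited.

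Among shared high genes with a known part in signalling, ID3 had 643, 758 and 613 FPKM in AOC and 559, 512 and 753 FPKM in IEC4 (log2 fold change 0.16 ± 0.16 SE, limma adjusted p = 0.413) and FST, the activin and BMP antagonist follistatin, had 126, 104 and 102 FPKM in AOC and 203, 153 and 259 FPKM in IEC4 (log2 fold change -0.86 ± 0.19 SE, limma adjusted p = 0.00394). Both were low on day 2 of induction, at 34.8, 15.7 and 24.9 FPKM and 2.52, 2.49 and 3.25 FPKM in the 3 day 2 libraries. They were among 48 genes high in AOC and on day 4 but not on day 2, of which 35 were high on day 12. For comparison, 291 genes were high in AOC and on days 2, 4 and 12. Membership in the 48 depends on the limit of 100 FPKM. SNX2, for example, had 114, 114 and 93.2 FPKM on day 2 and 121, 108 and 102 FPKM on day 4. On day 12 ID3 was high, at 2716, 2678 and 2577 FPKM, but FST was not, at 37.7, 63.3 and 58.8 FPKM. PDLIM1, an adaptor of actin stress fibres, had 965, 815 and 839 FPKM in AOC and 207, 201 and 325 FPKM in IEC4, and 18.2, 34.4 and 15.2 FPKM on day 2. It was low again on day 12, at 19.7, 23.1 and 20.4 FPKM. BLVRB, biliverdin reductase B, had 142, 139.6 and 144 FPKM in AOC and 395, 438 and 464 FPKM in IEC4, and 52.3, 56.3 and 47.8 FPKM on day 2. On day 12 it had 63.7, 103 and 93.1 FPKM and was not high.

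The share of AOC-high genes that were high at a stage was 55.71% on day 2 (356 genes), 57.12% on day 4 and 64.16% on day 12 (410 genes). These overlaps share the AOC libraries. The stages themselves had 527, 508 and 545 high genes.

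The other 274 AOC-high genes were not high on day 4, and most still reached 10 FPKM. In 239 of them every IEC4 library had at least 10 FPKM, and the median of their IEC4 means was 57.7 FPKM. By the 2-fold rule 203 of the 274 were higher in AOC, and 65 passed the study's limits. Every IEC4 library was under 10 FPKM for 17 of them and under 1 FPKM for 4.

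Among AOC-high genes with a symbol, the 10 largest differences toward AOC were those of GNG11, ECSCR, GASK1B, CDH5, LAPTM5, CD86, MYCT1 and LGALS1, given above, with MT1X and FABP3. MT1X, a metallothionein, had 422, 389 and 408 FPKM in AOC and 4.72, 6.98 and 9.28 FPKM in IEC4 (log2 fold change 5.71 ± 0.20 SE, limma adjusted p = 3.96e-07), and FABP3, a fatty acid-binding protein of muscle and capillaries, had 537, 573 and 655 FPKM in AOC and 10, 9.91 and 13.5 FPKM in IEC4 (log2 fold change 5.61 ± 0.15 SE, limma adjusted p = 1.23e-07). ESM1, a proteoglycan of endothelial tip cells outside the naming rule and chosen after its values were seen, had 191, 193 and 153 FPKM in AOC and 3.53, 5.35 and 3.46 FPKM in IEC4 (log2 fold change 5.15 ± 0.17 SE, limma adjusted p = 3.39e-07).

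**Figure D5:**
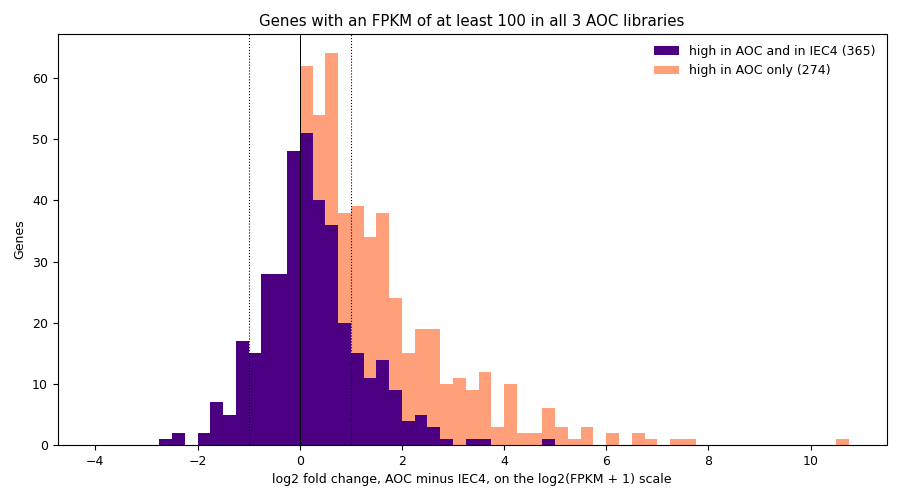
Stacked number of genes (vertical axis) by log2 fold change, AOC minus IEC4 (horizontal axis, bins of 0.25), for the 639 genes that reached 100 FPKM in all 3 AOC libraries, with dotted lines at 2-fold. The 365 genes also high in IEC4 gather around a median of 0.16, and the 274 high in AOC only extend to GNG11 at 10.63.

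Of the genes singled out by the study, those described here were spread over these patterns. CYYR1, a membrane protein of endothelium, was higher in AOC but varied within IEC4, at 24.2, 24 and 15.5 FPKM in AOC and 3.76, 0.802 and 6.62 FPKM in IEC4 (log2 fold change 2.44 ± 0.48 SE, limma adjusted p = 0.00208). NEDD4L, a ubiquitin ligase, had 1.66, 1.89 and 1.85 FPKM in AOC and 7.35, 5.72 and 6.37 FPKM in IEC4 (log2 fold change -1.41 ± 0.15 SE, limma adjusted p = 7.55e-05, -0.59 and not called after the adjustment for span). LSM4, a splicing protein, was high in both, at 286, 249 and 269 FPKM in AOC and 441, 414 and 402 FPKM in IEC4 (log2 fold change -0.64 ± 0.10 SE, limma adjusted p = 0.000646). LYPD1 and MPPED2 were listed at 0 in AOC and had 1.41, 1.58 and 1.18 FPKM and 4.24, 5.42 and 7 FPKM in IEC4 (limma adjusted p = 3.02e-05 and limma adjusted p = 5.98e-06). FTL, the ferritin light chain, had 10.1, 20.2 and 12.3 FPKM in AOC and 1.03, 1.33 and 2.56 FPKM in IEC4 (log2 fold change 2.51 ± 0.30 SE, limma adjusted p = 0.000129). CXCL13 and the brachyury gene T could not be matched by symbol.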

How the data were processed

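The 6 libraries of AOC and IEC4 were taken from a series of 12, with groups and replicate letters from the sample titles. The libraries were made from amplified cDNA by the Smart-Seq2 protocol. The authors deposited 1 FPKM value per Ensembl gene and library. The submitters' processing notes name TopHat2 (2.0.12), Bowtie2 (2.2.3), Cufflinks (2.2.1) and the build susScr11, and the annotation is not given in the sources used here. FPKM divides by transcript length and by the mapped total, so a few very abundant genes lower the values of all others. No counts were used, the number of reads is unknown and no interval for counting error is given.

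A unique symbol was found for 13996 of the 19681 identifiers. Spans and coordinates are those of RefSeq on Sscrofa11.1, joined by symbol. The 10207 genes that reached 1 FPKM in 3 or more of the 6 libraries were tested on log2(FPKM + 1) with limma 3.58.1 (R 4.3.3, lmFit and eBayes with trend), Benjamini-Hochberg adjusted over all of them. The script was tested on simulated data. Figures and tables were made with pandas 2.3.3, NumPy 2.4.6, matplotlib 3.10.9 and Python 3.11.15.

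The genes named were the 12 largest changes in each direction among genes past the study's limits without overlap, the 15 with the highest lowest FPKM, the 10 closest and 10 farthest of the AOC-high genes, list members with the largest changes, the genes the study names and 14 pairs of related genes; not every such gene is described. The comparison, the gene lists and these rules were chosen with earlier results of these data known. Lists are described by counts beside those of all genes, with no set test. The alternatives were another pseudocount, no filter, a fit of all 12 libraries, a replicate block, 3 scalings, other limits, a fit with trend left off and leaving out each library. No libraries were identical. The replicate letters did not pair the libraries (correlations of deviations 0.088, 0.044 and 0.023 for A, B and C). P-values measure only the spread between these libraries.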

Additional observations from a re-analysis of the deposited data

How the results depend on the processing

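The count past the study's limits, 565, was 1539 with a pseudocount of 0.1 (28.8% higher in AOC, against 41.1%), 220 with limma treat against a log2 fold change of 3, and 7552, of which 2457 were higher in AOC, with an adjusted p under 0.05 and no fold limit. For the 2-fold rule that last setting gives the same 7552 in place of 4531. In both cases the limit itself changed. Leaving out each library in turn gave 524 to 598 and 4404 to 4688. The replicate block gave 562 and 4543 calls, with no change of side for a named gene, and, since the letters share only a name, nothing more is drawn from it. The share of called genes higher in AOC was 55.8% under the study's limits (319 of 572) and 50.3% under the 2-fold rule (2116 of 4204) after scaling by the median of ratios, and 31.4% (183 of 582) and 23.6% (1183 of 5023) at equal totals. The genes high in both groups, 365, numbered 786 at an FPKM of at least 50, 150 at 200 and 366 to 378 without each library. High is required in every library of a group, so leaving out a library can only keep or raise this count.

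Among 201 named genes and 3006 values under alternatives, no called gene changed direction, 46 values lost and 7 gained the 2-fold call. The lists whose median changed sign after scaling by the median of ratios were collagens and matrix (0.21), actin and contractile (0.072), blood cell markers (0.22) and HOX genes (0.59). Adjusted for gene span, an alternative added after seeing the data, they were collagens and matrix (0.31), actin and contractile (0.081), TGF-β and activin (0.084), blood cell markers (0.21), mitochondrial DNA genes (-0.18) and HOX genes (0.28). Blood cell markers were at 0.17 with a pseudocount of 0.1. Leaving out each library, collagens and matrix ranged from -0.30 to 0.11 (highest without IEC4 C), blood cell markers from -0.19 to 0.18 (above 0 without AOC C or IEC4 C) and HOX genes from -0.13 to 0.032 (highest without IEC4 B). The causes were not tested. Depth is unknown, so genes at low FPKM are limited by it to an extent that cannot be given.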

Other observations

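Some genes past the study's limits lie next to each other on the chromosome. Of 425 such genes with a RefSeq place among protein-coding genes, 22 pairs were neighbours, 19 of them changed in the same direction and 3 in opposite directions. The pairs were chosen after their values were seen and no test was made of their number. TFPI2 and GNG11, on chromosome 9 between 73684236 and 73726229, were both higher in AOC (log2 fold changes 5.46 and 10.63), as were CAV1 and CAV2 on chromosome 18 between 29648120 and 29707277 (3.52 and 3.60). TCEAL9 and BEX3, from the X chromosome between 84276985 and 84302124, were both lower in AOC (-7.07 and -7.98), as were the keratins KRT8 and KRT18 on chromosome 5 and the kallikreins KLK15, KLK4 and KLK5 on chromosome 6 (-3.71, -3.81 and -5.96). The kallikreins are close copies, and reads could be split among them. The pairs in opposite directions were GRP and SEC11C, RPS15 and DAZAP1, and STMN2 and IL7, where IL7 was higher in AOC (4.83) and STMN2 lower (-3.16).

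Within IEC4, library C stood apart for some epithelial and protease genes. The genes given here lie outside the naming rule and were chosen after their values were seen. The number of genes in which library C stood apart was not counted, and it also differed from A over short genes, as given above. PLAU, urokinase, had 40.6, 33.3 and 621 FPKM in IEC4 A, B and C, against 87, 80.6 and 72.7 FPKM in AOC, and CLDN4, a claudin, had 7.55, 7.34 and 61.1 FPKM against 0.0484, 0 and 0.0235 FPKM. SPINT1, an inhibitor of membrane serine proteases, had 9.2, 6.64 and 54.5 FPKM in IEC4 and 0.0582, 0 and 0 FPKM in AOC. CTNNB1, in contrast, had 117, 108 and 99.8 FPKM in IEC4.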
